A study of Mus musculus with 14 samples.

Results

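The hyaluronan-based matrix of the newborn mouse brain was followed here through 10 genes in RNA-SEQ counts of whole brain. They were chosen by name for their role in this matrix, with earlier results of these data known, and are the lecticans Acan, Bcan, Ncan and Vcan, the link proteins Hapln1 and Hapln4, the tenascins Tnc and Tnr, and the hyaluronan synthases Has2 and Has3. All 10 of the 10 listed genes were among the 17927 genes with counts. The RNA came from brains at postnatal day 2 (P2) of untreated mice, 7 wild type (WT) and 7 labelled as lacking Capn15 (KO), an intracellular cysteine protease of the calpain family. The question of the design was which transcripts differ in abundance when Capn15 is lost. The WT group held 2 females and 5 males, and the KO group 4 females and 3 males. The headings of the count table carry a letter for each brain, A to F, read here as the litter because the study states that the brains came from 6 litters. Litter B gave 4 brains (WT and KO replicates 2 and 3) and every other litter gave 1 WT and 1 KO brain with the same replicate number. In litters A, B and E the WT brains were male and the KO brains female. Litters C and D had the reverse, and both brains of litter F were male. The study made its lines in C57BL/6J mice and names a Capn15(lacZ-Neo) line and a floxed Capn15 line. Which of these alleles the KO brains carry is not given in the sources used here, and neither is a promoter or Cre that would limit the loss to some cells. All 14 libraries carry the same batch label.

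Lecticans are large secreted chondroitin sulfate proteoglycans. Their N-terminal domain binds the polysaccharide hyaluronan, link proteins of the HAPLN family clamp that contact, and their C-terminal domain binds tenascins, so that the parts together form a meshwork around brain cells. Hyaluronan itself is spun out at the plasma membrane by the HAS synthases. In young brain the matrix is loose and rich in neurocan, versican and tenascin-C. The denser perineuronal nets of adult neurons, with aggrecan, link proteins and tenascin-R, are laid down after birth.

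Total counts ranged from 39937477 to 57422382 in WT and from 37620954 to 70910163 in KO libraries, and the members' counts in single libraries lay between 56 (Hapln4) and 51552 (Ncan). Levels are given as CPM (counts divided by library size, times 1000000) scaled with TMM factors, and a gene was called at a Benjamini-Hochberg adjusted p (FDR) under 0.05 over all 17927 genes. The targeted gene, Capn15, was at 25.4 ± 3.07 CPM in WT and 14.5 ± 2.67 CPM in KO libraries (mean ± SD, n = 7 each). Its log2 fold change was -0.81 (SE 0.12) with an FDR of 0.0747 by edgeR's quasi-likelihood test. The library labelled WT replicate 7 had 18.7 CPM and the library labelled KO replicate 7 had 20.2 CPM, against the order their labels imply. These are the brains of litter F, and WT and KO values below include them as labelled. Without them the log2 fold change of Capn15 was -0.98 with an FDR of 1.58e-06. The labels give the cell type as neurons and the tissue as brain. The summed neuronal markers (7 genes such as Tubb3 and Snap25) reached 7076 to 7492 CPM, but the 7 astrocyte markers also reached 1122 to 1756 CPM and the 6 choroid plexus markers 607 to 980 CPM, so the libraries held whole brain tissue.

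Loss of Capn15 went with no called change in any of the 10 matrix genes. By edgeR's quasi-likelihood test with litter and sex as terms, 0 of 10 members had an FDR under 0.05, beside 1 of all 17927 genes (0.00558%), the prostaglandin D synthase gene Ptgds. The study, also with edgeR, sex and litter, reported more genes at the same FDR cutoff. Capn15 was among them, with a larger decrease than found here. The study does not name the edgeR test it used. Here edgeR's likelihood ratio test, on the same counts and terms, called 34 of all genes. The source of the difference from the study was not tested. In the quasi-likelihood fit 1 member, Vcan, had an unadjusted p under 0.05, beside 5.14% of all genes. The edgeR likelihood ratio test, DESeq2 and limma-voom also called 0 of 10 members, with 1, 2 and 1 at an unadjusted p under 0.05. The members' log2 fold changes ran from -0.20 to 0.10 with a median of 0.0066, and the median over all genes was 0.0015. The WT and KO ranges overlapped for all 10 members, and 1 of all genes (0.00558%) had ranges that did not. In bulk tissue, fewer cells of a type and less RNA per cell cannot be told apart.

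**Figure D1:**
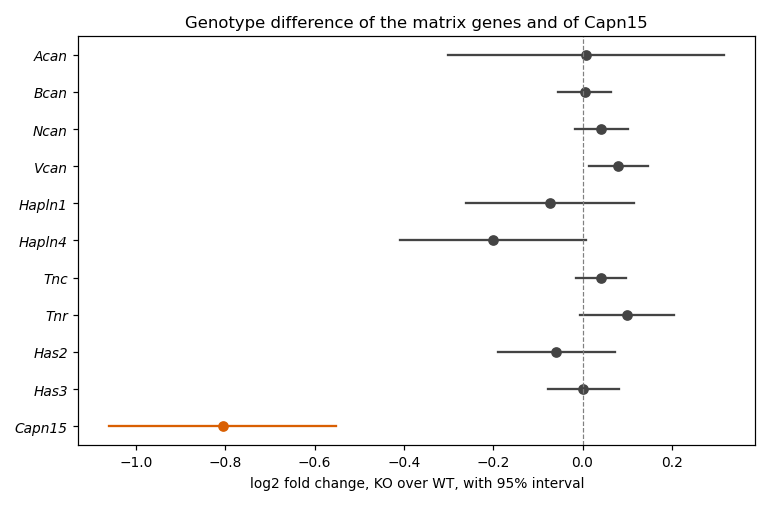
Log2 fold change of each matrix gene and of Capn15, KO over WT (x axis), with 95% intervals from edgeR's quasi-likelihood fit over 14 libraries. The points of the 10 matrix genes lie between -0.20 (Hapln4) and 0.10 (Tnr), and Capn15 lies at -0.81.

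Among the lecticans, the narrowest intervals were those of Bcan and Ncan. Bcan (brevican, a lectican largely confined to the nervous system) had 125, 169 and 174 CPM as lowest, median and highest in WT and 131, 157 and 181 CPM in KO. The groups overlapped, with the KO range somewhat higher at both ends, and the 95% interval of the KO over WT difference ran from -3.74% to 4.59%. Ncan (neurocan, the lectican of growing axons and young matrix) had 692, 701 and 808 CPM in WT and 680.1, 731 and 779 CPM in KO, with an interval from -1.24% to 7.27%. Its log2 fold change was 0.04, and 0.02 without litter F. The highest WT value came from replicate 1, and all other WT brains lay within the KO range.

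Vcan (versican, the lectican shared by brain and connective tissue) had the lowest p among the members. Its lowest, median and highest levels were 171, 209.9 and 242 CPM in WT and 189, 208 and 241 CPM in KO. The KO brain was higher in 4 of 7 pairs with the same replicate number, and both groups reached the same upper end. It was lower in the pairs of litters A and B and higher in those of C, D, E and F. Every pair except that of litter F joined a male and a female, so pair counts here and below do not separate genotype from sex. Within litter B the pairing follows the replicate number alone. The fitted log2 fold change was 0.08 (SE 0.031, unadjusted p = 0.0216 and FDR 0.872 by edgeR's quasi-likelihood test), with a 95% interval from 0.956% to 10.7%. Without litter F it was 0.07 with an unadjusted p of 0.0642, and without litter B it was 0.11 with an unadjusted p of 0.00318 and an FDR of 0.478. In the model with replicate number as the block and no sex term it was 0.04.

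Acan (aggrecan, the main lectican of perineuronal nets and of cartilage) was near the bottom of the range at P2. It had 2.87, 3.83 and 4.99 CPM in WT and 2.08, 3.99 and 5.05 CPM in KO. It had 78 to 248 counts per library and a wide interval, from -18.8% to 24.6%, so a difference of that size was not detectable at this depth and spread. Counts alone do not set this width. Hapln4, with 56 to 141 counts, had a smaller SE (0.097 against 0.144). Without litter B, whose brains had 2.08 to 4.32 CPM, the SE of Acan was 0.103.

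The link proteins were the members with the lowest fitted values in KO, without passing the test. Hapln4 (also called Bral2, a link protein of perineuronal nets) had 1.47, 1.996 and 2.46 CPM in WT and 1.49, 1.65 and 2.25 CPM in KO. The KO brain was lower in 6 of 7 pairs, yet the KO range lay wholly inside the WT range. The log2 fold change was -0.20 (SE 0.097, unadjusted p = 0.059 and FDR 0.978 by edgeR's quasi-likelihood test), and the interval ran from -24.7% to 0.605%. Hapln1 (the cartilage link protein, which also stabilises hyaluronan and lecticans in brain) had 4.34, 9.74 and 18.9 CPM in WT and 4.77, 9.19 and 18.4 CPM in KO. It too was lower in KO in 6 of 7 pairs, by far less than it varied within a group, and its log2 fold change was -0.07 (SE 0.088, FDR 1 by edgeR's quasi-likelihood test). Without litter F the log2 fold changes were -0.21 for Hapln4 and -0.08 for Hapln1.

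The tenascins and the hyaluronan synthases showed the same overlap. Tnc (tenascin-C, a product of radial glia and immature astrocytes) had 238, 279 and 326 CPM in WT and 259, 281 and 330.3 CPM in KO, with an interval from -1.04% to 7.04% and a log2 fold change of 0.04, or 0.05 without litter F. Tnr (tenascin-R, made largely by oligodendrocyte lineage cells and some neurons) had 76.2, 82.8 and 105 CPM in WT and 74.4, 96.0 and 102 CPM in KO. Its log2 fold change was 0.10 (SE 0.049, unadjusted p = 0.0635 and FDR 0.982 by edgeR's quasi-likelihood test), and without litter F it was 0.06. Without litter B it was 0.13 with an unadjusted p of 0.0168 and an FDR of 0.599, and with the replicate number as the block, beside sex, it was 0.10 with an unadjusted p of 0.0357. Has2, the main hyaluronan synthase of embryonic tissue, had 7.44, 7.86 and 8.70 CPM in WT and 6.64, 8.01 and 8.23 CPM in KO. Has3, the synthase known for shorter chains, had 26.2, 28.2 and 31.6 CPM in WT and 23.6, 28.2 and 31.0 CPM in KO. The lowest value of both synthases was that of KO replicate 3, and the other brains of the groups were interleaved. The intervals were -12.3% to 5.16% for Has2 and -5.26% to 5.75% for Has3. Without litter F the log2 fold changes were -0.07 for Has2 and -0.01 for Has3, beside -0.06 and 0.0014 with it.

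**Figure D2:**
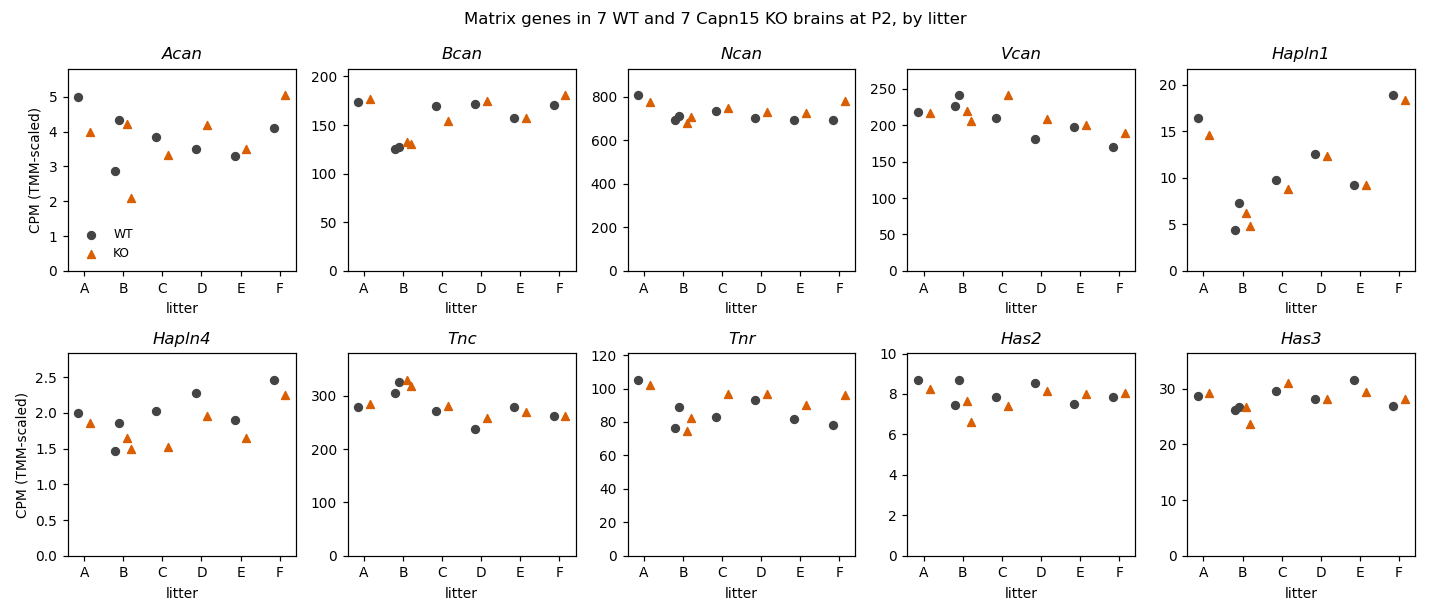
Level of each of the 10 matrix genes (y axis, TMM-scaled CPM, from 0) in each of the 14 brains, placed by litter (x axis), with WT as dark circles and KO as orange triangles. Brains of a litter lie together for Hapln1, Bcan and Tnc whatever their genotype, with litter B (4 brains) lowest for Hapln1 and Bcan and highest for Tnc.

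The levels of several members followed the litter of the brain. In the same fit, the F-test over the litter terms called 6 of 10 members, against 29.6% of all genes (5301 of 17927). They were Hapln1 (FDR 2.79e-05), Bcan (FDR 3.03e-05), Tnc (FDR 0.000197), Vcan (FDR 0.000682), Tnr (FDR 0.0216) and Has3 (FDR 0.0249). Ncan (FDR 0.0568), Hapln4 (0.0908), Acan (0.554) and Has2 (0.653) did not pass. Among genes with a mean of at least 5 CPM, where 38.4% were called, 8 of the members qualified and 6 of them were called. Whether that share differs from other genes was not tested. What else the brains of a litter shared, such as their age in hours or the day of dissection, cannot be told apart from the litter.

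Hapln1 spread the most. Its 4 brains of litter B had 4.34, 7.29, 6.24 and 4.77 CPM (WT replicates 2 and 3, then KO replicates 2 and 3). The 10 other brains had 8.83 to 18.9 CPM, so litter B lay below every one of them. Litter F was the highest, at 18.9 and 18.4 CPM, and its mean was 3.30 times that of litter B (18.7 against 5.66 CPM). Litters C and E lay at 9.29 and 9.21 CPM, litter D at 12.5 and litter A at 15.5. Bcan followed a similar course within a narrower span. Its litter B brains had 125, 127, 132 and 131 CPM in the same order, all below the 154 to 181 CPM of the others, and the highest litter mean (F, 176 CPM) was 1.37 times the lowest (B, 129 CPM). Has3 was also below all other brains in litter B, by less, with 23.6 to 26.7 CPM against 26.9 to 31.6 CPM.

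Tnc went the other way. The 4 brains of litter B had 306, 326, 330.3 and 319 CPM, above all 10 others, which had 238 to 285 CPM. Its litter means ran from 249 CPM in D to 320.3 CPM in B, a ratio of 1.29. Vcan had its lowest litter mean in F (179.9 CPM) and its highest in C (226 CPM), with litter B at 223 CPM, and no litter stood clear of all others at the high end. Tnr was lowest in litter B (80.5 CPM) and highest in A (104 CPM), and its litter B brains overlapped the others. In all, 4 of the 8 members at or above 5 CPM had litter B wholly above or wholly below the other brains, as had 22.5% of the 12176 genes at that level. Litter B was singled out after the values were seen.

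**Figure D3:**
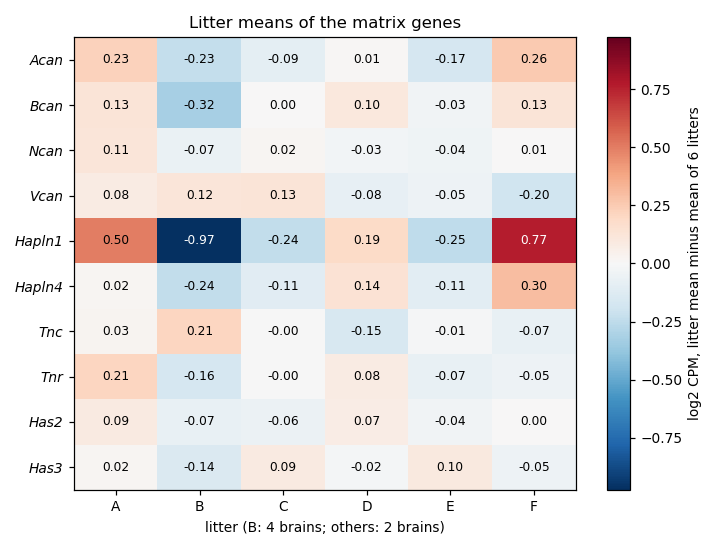
Mean log2 CPM of each matrix gene in each litter minus the mean of the 6 litters (colour and number, log2 units), with genes as rows and litters A to F as columns. Hapln1 runs from -0.97 in litter B to 0.77 in litter F, Bcan has -0.32 and Tnc 0.21 in litter B, and Ncan and Has2 stay between -0.07 and 0.11.

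Much of this rested on litter B. Without its 4 brains, the litter test called 2 of 10 members, Hapln1 (FDR 0.00208) and Vcan (FDR 0.0234), and 196 of all genes. Leaving out single libraries gave 4 to 7 called members, and Hapln1, Bcan, Vcan and Tnc were among them each time. Both Tnr and Has3 lost the call without WT replicate 2, KO replicate 1 or KO replicate 3, Tnr alone without WT replicate 1, and Has3 alone without WT replicate 6 or KO replicate 4. Ncan gained it without either library of litter F and without KO replicate 4. Without litter F, 7 of 10 members were called.

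Markers of other cells moved with litter B as well. The summed astrocyte markers (7 of 7 measured, such as Aqp4 and Gfap) were 1122 to 1279.6 CPM in litter B and 1460.3 to 1756 CPM elsewhere. The 5 markers of oligodendrocyte precursors came to 255 to 278 CPM in litter B against 290.3 to 349 CPM, and the 5 markers of myelinating oligodendrocytes to 134 to 162 CPM against 164 to 355 CPM. The 4 microglial markers were at 60.4 to 71.1 CPM against 76.1 to 88.8 CPM. The summed neuronal (mean ratio 0.986) and radial glia markers (1.03) overlapped. So did the 5 summed red blood cell genes, whose mean was 2.09 times as high in litter B. Single genes within the neuronal and radial glia sums differed. Syt1 and Snap25 lay wholly below the other brains in litter B (ratios 0.807 and 0.781), and Dcx was at 1.23 with overlap. Nes and Vim lay wholly above (1.17 each), and the other neuronal and radial glia markers overlapped. The litter test called 5 of 7 neuronal and 5 of 6 radial glia markers, beside 38.4% of genes with at least 5 CPM. No marker was at 0 in any library, and 0 marker genes of the 11 lists were called between genotypes. The part of these cells in the litter differences of the matrix genes was not tested.

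To show what lies upstream of the members whose litter order was opposite or whose genotype p was lowest, 250 bases before the RefSeq start (GRCm38.p6, transcript strand, 5′ to 3′) are printed for Bcan at chr3:88000357-88000606 (minus strand), Tnc at chr4:64047016-64047265 (minus strand) and Vcan at chr13:89742513-89742762 (minus strand). None of the 3 printed windows overlaps an annotated exon. Tnc has a second RefSeq start, whose window at chr4:64046937-64047186 overlaps an exon by 79 bases and is not printed. Capitals mark matches on either strand to one of the searched motifs. A TATA box was searched for with the letters TATAAA. The CCAAT box was searched by its own letters, and a GC box by the letters GGGCGG. No match overlapped one of another motif.
Bcan: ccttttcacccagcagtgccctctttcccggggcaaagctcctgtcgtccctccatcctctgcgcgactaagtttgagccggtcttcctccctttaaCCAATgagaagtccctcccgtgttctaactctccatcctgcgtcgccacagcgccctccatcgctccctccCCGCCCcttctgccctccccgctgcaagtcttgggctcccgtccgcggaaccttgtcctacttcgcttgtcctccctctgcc
Tnc: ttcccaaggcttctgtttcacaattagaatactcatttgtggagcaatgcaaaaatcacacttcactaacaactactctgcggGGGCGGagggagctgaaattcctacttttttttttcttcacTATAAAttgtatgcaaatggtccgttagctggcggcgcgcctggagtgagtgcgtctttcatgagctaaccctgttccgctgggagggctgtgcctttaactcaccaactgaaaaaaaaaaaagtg
Vcan: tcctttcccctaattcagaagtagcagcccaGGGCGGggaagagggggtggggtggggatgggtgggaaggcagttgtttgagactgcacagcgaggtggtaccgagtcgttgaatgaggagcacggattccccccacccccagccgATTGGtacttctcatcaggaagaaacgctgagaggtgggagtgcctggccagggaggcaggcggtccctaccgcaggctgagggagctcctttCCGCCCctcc
The Tnc window held 1 TATA box and 1 GC box, and no CCAAT box. The Bcan window held 1 CCAAT box and 1 GC box, and the Vcan window 1 CCAAT box and 2 GC boxes, and neither held a TATA box. Of 32851 RefSeq upstream windows of the same length, 12.4% held TATAAA, 33.8% CCAAT and 32.7% GGGCGG. The AP-1 letters TGANTCA, present in 6.75% of windows, were in none of the 3. The windows held 16 (Bcan), 8 (Tnc) and 10 (Vcan) CpG dinucleotides, beside a median of 6. These matches are a description of the letters and not evidence of binding.

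Females and males did not differ past the threshold in any member, with 0 of 10 called beside 12 of all genes (0.0669%), by edgeR's quasi-likelihood test. The likelihood ratio test, DESeq2 and limma-voom also called 0, and at an unadjusted p under 0.05 each had 1 member, beside 5.04% of all genes in the quasi-likelihood fit. There the member was Vcan, with a log2 difference, female minus male, of -0.14 (SE 0.0335, unadjusted p = 0.00113 and FDR 0.507). Its levels were 181.5 to 219.8 CPM in 6 females (mean 206) and 171 to 242 CPM in 8 males (mean 212). The female range lay inside the male one, so the fitted difference rests on comparisons within litters. In litters A to E a comparison of female with male is also one of WT with KO. The fit therefore separates sex from genotype only by assuming that their effects add.

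Per kilobase of merged exons, the unit used here to compare one gene with another, Ncan stood highest at 101 ± 5.30 CPM per kb (mean ± SD, n = 14). That placed it at rank 313 of the 17915 genes with an annotated length. Bcan followed at 38.7 ± 5.0 and Tnc at 36.5 ± 3.50 CPM per kb. Vcan was at 14.5 ± 1.42, Tnr at 6.91 ± 0.762 and Has3 at 4.41 ± 0.322 CPM per kb. At the lower end were Has2 with 1.87 ± 0.133, Hapln1 with 1.85 ± 0.809, Acan with 0.509 ± 0.106 and Hapln4 with 0.480 ± 0.0784 CPM per kb. Of the neighbours in this order, the ranges of Bcan and Tnc, of Has2 and Hapln1, and of Acan and Hapln4 overlapped, while the remaining neighbours held their order in all 14 brains.

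The order of Bcan and Tnc followed the litter. Bcan was above Tnc per kilobase in 10 of 14 brains, which were all 10 brains outside litter B. In the 4 brains of litter B, Tnc had 39.4 to 42.5 CPM per kb and Bcan 30.8 to 32.5. Elsewhere Bcan had 38.0 to 44.5 and Tnc 30.6 to 36.6 CPM per kb. Taking the longest transcript in place of merged exons left Tnc above Bcan in the same 4 brains and Bcan above Tnc in the same 10.

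**Figure D4:**
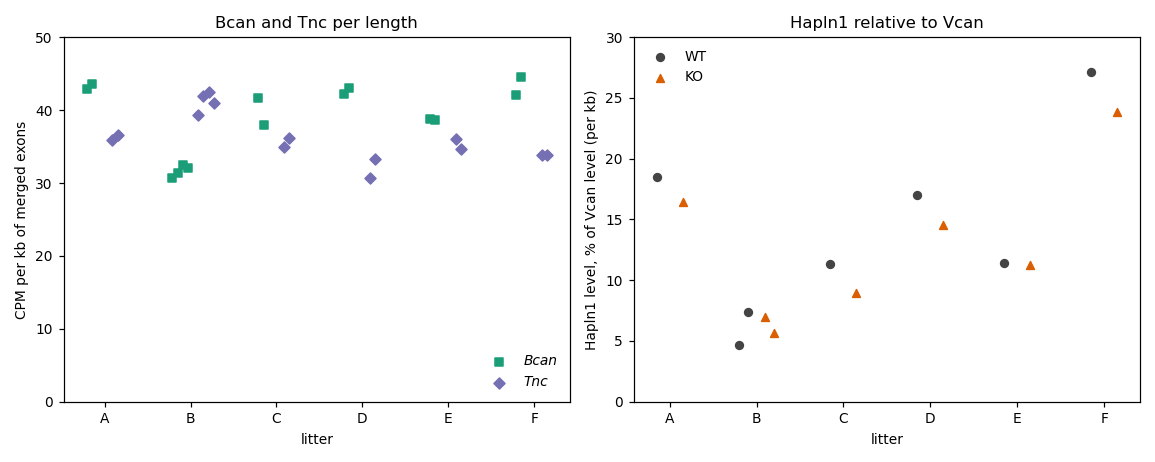
Left, level of Bcan (green squares) and Tnc (violet diamonds) in CPM per kb of merged exons for each brain, by litter. Right, Hapln1 level as a percent of the Vcan level, both per kb, for WT (dark circles) and KO (orange triangles). In litter B Tnc lies above Bcan and the Hapln1 ratio is 4.70% to 7.39%, and in litter F the ratio is 23.8% to 27.2%.

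Neurocan transcripts made up most of the lectican pool. Of the summed per-kilobase level of the 4 lecticans, Ncan held 65.4% ± 1.33, Bcan 24.9% ± 2.26, Vcan 9.37% ± 1.12 and Acan 0.328% ± 0.0602 (SD, n = 14). The shares of WT and KO brains were 65.2% and 65.5% for Ncan, 25.1% and 24.8% for Bcan, and 9.35% and 9.40% for Vcan. Between litters they moved more. Bcan held 21.2% to 22.8% in litter B and 23.9% to 27.9% elsewhere, and Ncan 66.2% to 67.8% against 63.7% to 65.7%. With the longest transcript as the length, Ncan held 60.0% and Bcan 29.6%, so the sizes of the shares depend on the gene models.

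In the mouse genome each lectican gene has a link protein gene beside it, with 0 protein-coding genes between (GRCm38, GENCODE M21). Acan (chr7:79053483-79115099) and Hapln3 are 2 bp apart, Ncan (chr8:70093085-70120873) and Hapln4 (chr8:70083457-70090862) 2222 bp, Bcan (chr3:87987531-88000230) and Hapln2 21519 bp, and Vcan (chr13:89655312-89742509) and Hapln1 (chr13:89539796-89611652) 43659 bp. Only Bcan and Hapln2 lie on the same strand. Tnc lies at chr4:63959785-64047015, Tnr at chr1:159523769-159931729, Has2 at chr15:56665627-56694539 and Has3 at chr8:106870242-106884566.

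The levels of neighbouring genes were far apart. Per kilobase, Hapln4 was at 0.511% of Ncan in WT and 0.440% in KO, and Hapln2, the link protein of the nodes of Ranvier, at 0.402% and 0.436% of Bcan. Hapln3 exceeded Acan, with 252% in WT and 244% in KO. Hapln1 relative to Vcan was 13.9% ± 7.59 in WT and 12.5% ± 6.32 in KO (SD, n = 7 each). That ratio lay between 4.70% and 7.39% in litter B and between 8.97% and 27.2% in the other litters, the top values being those of litter F. These are ratios of transcript levels and say nothing of the proteins.

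Several members overlap other annotated genes, and whether the counting used strand is not given in the sources used here. Vcan has Gm16318 and Gm4117 on the other strand, Hapln1 has Gm8546, Tnc has 8030451A03Rik, Tnr has Gm38039, Has2 has Has2os and Has3 has Chtf8. On the same strand Tnr shares its span with Gm10530 and Gm37731, and Ncan with Mir7066. Reads of these pairs may not be told apart, and no overlap was found for Acan, Bcan or Hapln4.

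Across the 14 brains, with genotype means taken out, several members moved together. Of the 45 member pairs, Bcan and Hapln1 had r = 0.92 (Pearson, rho = 0.93), Hapln1 and Hapln4 r = 0.89 (rho = 0.90) and Ncan and Tnr r = 0.85 (rho = 0.82). Bcan and Tnc had r = -0.86 (rho = -0.68). With litter means also subtracted, Ncan and Tnr stayed at 0.82 and Hapln1 and Hapln4 at 0.79, whereas Bcan and Hapln1 were at 0.26 and Bcan and Tnc at 0.06. Points of a litter are not independent, so these are descriptions.

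The genes most like each member, by Pearson's r of log2 CPM over the same 14 brains, were found in the same way. For Hapln1 they were Fkbp1b, Ncald and Rasgrp1 (r = 0.99 each), which kept r of 0.91, 0.92 and 0.89 with litter means subtracted. For Bcan they were D130043K22Rik, Camkv and St6galnac6 (r = 0.98 each), at 0.51, 0.71 and 0.49 with litter means subtracted. Tnr was most like the ankyrin gene Ank2 (r = 0.98), then Erc1 and Gas7 (0.95 each). These were at 0.92 or above with litter means subtracted. Vcan was most like Herc1, Plxna2 and Phc3 (0.93, 0.93 and 0.92), at 0.82, 0.81 and 0.82 with litter means subtracted. Tnc was most like Mapkapk2, Hdgf and Smcr8 (0.94 each), at 0.37, 0.77 and 0.61 with litter means subtracted. The highest r of the others were those of Ncan with Kcnma1 (0.90), Hapln4 with Vmp1 (0.95), Acan with Polr1a (0.91), Has2 with Pcdh7 (0.87) and Has3 with Srpk1 (0.90).

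Genes that make, bind or cut the same matrix were taken as 11 lists, of which 72 of 78 names were in the table, with Tmem2 an older symbol of Cemip2. By edgeR's quasi-likelihood test 0 of 72 were called between genotypes, as with the likelihood ratio test, DESeq2 and limma-voom. At an unadjusted p under 0.05 there were 5 of 72, beside 5.14% of all genes. The median log2 fold change of the 72 was -0.01, beside 0.0015 over all genes. Of the 72 values 29 were above 0 and 43 below, and of all genes 9214 were above and 8713 below.

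The lectican-cleaving proteases and their inhibitor had 7 of 8 values below 0, with a median of -0.04. Adamts9, a secreted protease that cuts versican and aggrecan, had 15.3, 17.6 and 19.5 CPM as lowest, median and highest in WT and 14.3, 15.5 and 17.0 in KO. It was lower in KO in 7 of 7 pairs, though the groups overlapped, with a log2 fold change of -0.16 (SE 0.043, unadjusted p = 0.00213 and FDR 0.475 by edgeR's quasi-likelihood test). Timp3, an inhibitor of these proteases, had -0.12 (unadjusted p = 0.015, FDR 0.805 by the same edgeR test). Adamts15, Adamts4, Adamts8, Adamts20 and Adamts1 lay between -0.08 and -0.00096 and Adamts5 at 0.01.

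Itih2, the heavy chain 2 of inter-alpha-trypsin inhibitor that is transferred onto hyaluronan, had the largest positive value of the lists. Its levels were 7.98, 12.2 and 15.7 CPM in WT and 10.2, 15.5 and 24.4 CPM in KO, higher in KO in 6 of 7 pairs with overlapping ranges. The log2 fold change was 0.43 (SE 0.13, unadjusted p = 0.00423 and FDR 0.614 by edgeR's quasi-likelihood test). Without the brains of litter F it was 0.58 with an FDR of 0.035, without litter B 0.35 with an FDR of 0.627, and without litter C 0.23 with an FDR of 0.798. Itih2 was among the genes the study called on these brains, so its place in the list is not independent evidence. Itih3 had -0.10 and Itih5 0.07.

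Enzymes of the chondroitin sulfate chain lay close to 0. The 12 synthesis genes had a median of -0.0030 and ran from -0.03 to 0.07, with Chsy3 at 0.07 and Xylt1 at 0.06 the lowest in p. The 9 sulfation and epimerase genes had a median of -0.05, with Ust, the uronyl 2-O-sulfotransferase, at -0.08 (unadjusted p = 0.0477, FDR 0.965 by edgeR's test) and Chst14 at -0.18 (unadjusted p = 0.0556, FDR 0.972 by edgeR's test). The 6 genes of UDP-sugar supply had a median of -0.02, with Gfpt1 at -0.02.

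Partners of the matrix gave the same picture. The 11 receptors and binding partners ran from -0.05 to 0.06, with Ptprf at 0.06 and Sdc3 at 0.05 the lowest in p. The 8 hyaluronan receptors and binding proteins had a median of -0.01, with Hmmr at -0.13 and Tnfaip6 at -0.11. The 5 genes of hyaluronan breakdown had a median of -0.02, with the hyaluronan-depolymerising Cemip at -0.08 and Hyal2 at 0.05. Of the other proteoglycans, Spock1 had 0.07 (unadjusted p = 0.0386, FDR 0.954 by edgeR's test) and Spock3 -0.07. The small lists of Hapln2, Hapln3 and Has1 (0.06, -0.17 and 0.25) and of Tnn and Tnxb (0.23 and 0.09) were measured at or below 5.76 CPM in both group means.

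**Figure D5:**
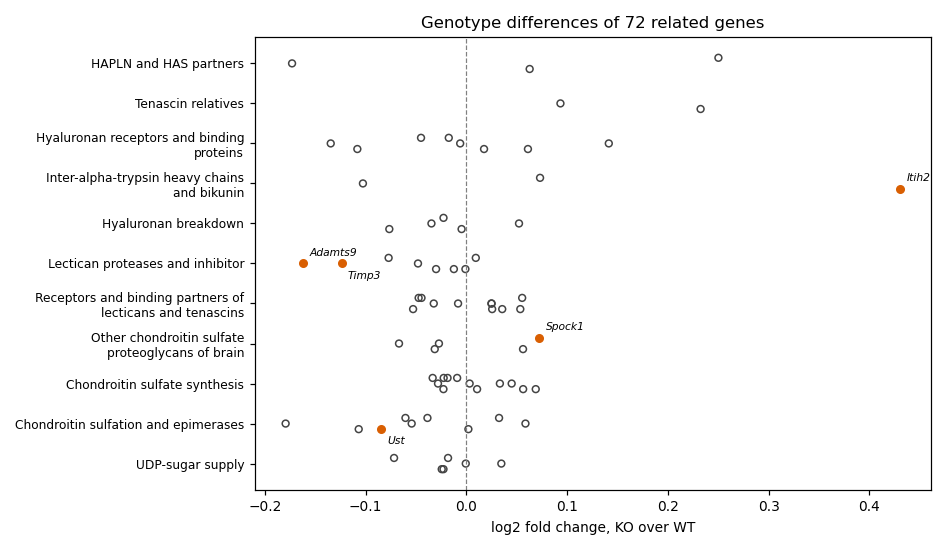
Log2 fold change, KO over WT (x axis), of 72 genes in 11 lists related to the matrix, 1 circle per gene. Filled orange circles mark the 5 genes with an unadjusted p under 0.05 by edgeR's quasi-likelihood test (Itih2, Adamts9, Timp3, Spock1 and Ust), and 0 of 72 passed the FDR threshold.

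Litter differences were also called among these related genes. The litter test called 28 of 72 (38.9%), beside 29.6% of all genes. Among genes with a mean of at least 5 CPM it called 27 of 61 related genes, beside 38.4% of all genes at that level. Whether these shares differ was not tested. Cntn1, the axonal adhesion protein that binds tenascin-R, was at 532 to 622 CPM in litter B and 706 to 929 CPM elsewhere (FDR 1.94e-05 by edgeR's quasi-likelihood test). The Nogo receptor relative Rtn4rl1, which binds chondroitin sulfate, was at 18.1 to 23.3 CPM against 25.6 to 33.4 CPM. Both enzymes of hyaluronan cleavage in the CEMIP family differed by litter in opposite directions, with Cemip at 17.4 to 19.4 CPM in litter B against 22.1 to 30.4, and Cemip2 at 83.4 to 98.0 against 57.3 to 80.9 CPM. Of the 61 related genes with at least 5 CPM, 13 lay wholly below the other brains in litter B and 3 wholly above (Cemip2, Xylt2 and Chsy1), in all 16 of 61, where 22.5% of all genes at that level were separate in either direction.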

How the data were processed

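RNA-SEQ of 14 P2 brains was analysed. Per the study's methods, the authors used Trimmomatic (phred cutoff 30), then STAR 2.7.8 against GRCm38, then HTSeq-count 0.11.1. The submitters' processing notes name featureCounts and Subread instead, and the labels and the methods name different library kits, so the counter and kit are unsettled. The deposited counts are whole reads per gene, filtered by the authors with a rule not given in the sources used here, and were used as deposited. Reads without molecular identifiers are not independent molecules.

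Genotype, sex and litter effects were fitted over all 17927 genes with edgeR 4.0.16 (TMM, quasi-likelihood) in R 4.3.3, as ~ litter + sex + genotype, with Benjamini-Hochberg adjustment. DESeq2 1.42.0 and limma 3.58.1 (voom) were alternatives, among 30 other fits, of which 25 were listed with the design and 5 (litters A to E left out) were chosen after seeing the data. The fitting code was tested on simulated data. Lengths are merged exons of GENCODE M21. Sequences came from RefSeq (GRCm38.p6), whose starts can differ from GENCODE's.

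Same-numbered WT and KO brains share a litter, per the column headings. Their deviations from the group means, over 12176 genes with at least 5 CPM, correlated at -0.62 to 0.62 (mean 0.061), beside -0.031 between brains of different litters. The most similar libraries of 1 group still differed by more than sampling noise (chi-square per gene 5.62), so none was taken as a copy. The mice are separate animals as far as the labels show, and p-values measure the spread between these brains.

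Members and lists were chosen with earlier results of these data known. Named were all members, Capn15, the link protein neighbours, called genes and the 2 lowest p of each list, and the 3 genes most like each member (genotype means subtracted, at least 5 CPM). The values of 1 gene that this rule names are not reported here. Litter examples of related genes were chosen after their values were seen.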

Additional observations from a re-analysis of the deposited data

Results flagged for a closer look

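Single brains were checked for standing apart within their group of 7, by the gap to the nearest brain divided by the group's whole range of log2 CPM. Of 42 gene-and-group sets checked, 4 passed Dixon's 95% limit, and chance alone flags about 1 in 20 sets (2.1 here). Ncan was highest in WT replicate 1, with a ratio of 0.619 (808 CPM). Hapln2 was lowest in WT replicate 3, with 0.648, at a level of 0.198 CPM that rests on 8 counts. For Capn15 the library labelled WT replicate 7 stood lowest of its group, with 0.761 (18.7 CPM), and the library labelled KO replicate 7 stood highest of its group, with 0.647 (20.2 CPM). Both of the last are brains of litter F, and the genotype differences of the matrix genes are given with and without that litter in the results or among the processing alternatives.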

How the results depend on the processing

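The count of members called between genotypes was 0 in all 30 other fits. Of all genes, 1 was called in the reported fit, 34 by the likelihood ratio test, 17 by DESeq2, 7 without litter F, and 0 with total counts without TMM factors and without each of litters A, B, C, D and E, and 0 to 7 when single libraries were left out. Related genes called were 1 (Itih2) without litter F and 0 to 1 with single libraries left out. With a replicate block instead of the litter terms, with and without sex, 0 of 10 members and 0 of all genes were called, and the block changed no call of a member. The litter test called 2 members and 196 genes of all without litter B, where fewer brains also entered. With the longest transcript Bcan held 29.6% and Ncan 60.0% of the lectican level.

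Signs of differences near 0 turned, none of them called. Acan (reported 0.0084) was -0.0011 by the likelihood ratio test, -0.0026 by DESeq2, -0.030 with genotype alone, -0.029 in the replicate block without sex, and -0.051, -0.049 and -0.019 without litters F, D and E. Bcan (0.0049) was -0.010, -0.00098 and -0.018 without litters F, B and D. Has3 (0.0014) was -0.00083 with total counts, -0.011 with genotype alone, -0.0023 with genotype and sex, -0.013 in the replicate block without sex, and -0.011, -0.012 and -0.0060 without litters F, A and C. Hapln2 was -0.15 and -0.069 without litters F and B, and Hapln3 was 0.00089 without litter C. With single libraries left out, Acan ranged from -0.068 to 0.12, Bcan from -0.018 to 0.043, Has3 from -0.014 to 0.022, Hapln2 from -0.15 to 0.26 and Hapln3 from -0.33 to 0.00093. Without 1 brain of a pair, the partner no longer enters the genotype comparison within its litter, except in litter B. Depth and the spread between brains limit Acan, Hapln4 and Hapln2, whose lowest counts were 78, 56 and 8.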

Other observations

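Other cell types of the tissue can be described from their marker lists. The 6 choroid plexus markers (such as Ttr and Folr1) summed to 743 to 980.1 CPM in WT and 607 to 847 CPM in KO, and each of the 6 had a fitted value below 0 in KO. Ttr, the transthyretin gene, was at 846 CPM in WT and 679.5 CPM in KO on average (log2 fold change -0.32, unadjusted p = 2.10e-05 and FDR 0.0942 by edgeR's quasi-likelihood test), lower in KO in 7 of 7 pairs. Kcnj13 was also lower in 7 of 7 pairs (-0.31, FDR 0.466 by edgeR's test), and Kcne2 had -0.36 (FDR 0.278 by edgeR's test). All 6 had an unadjusted p under 0.05 by edgeR's quasi-likelihood test, beside 5.14% of all genes. The highest of these was that of Folr1 (0.0495), and the lowest FDR was that of Ttr. The 6 are markers of 1 tissue in the same brains, litter F included, so they are not 6 separate results. Ttr was among the genes the study called on these brains, so its value is not independent evidence. The 7 leptomeningeal markers summed to 235 to 363 CPM in WT and 269 to 331 CPM in KO. Of these, Ogn had -0.39 (unadjusted p = 0.000115 and FDR 0.176 by edgeR's quasi-likelihood test) and was lower in KO in 7 of 7 pairs. Ogn was also among the genes the study called. Lum had -0.24, Slc6a13 -0.14, Igf2 -0.10, Col1a2 -0.07, Dcn 0.000049 and Col1a1 0.14. The 4 endothelial markers summed to 124 to 157 CPM in WT and 126 to 156 CPM in KO. Parvalbumin interneurons are the cells that later carry most perineuronal nets. Their 4 listed markers summed to 245 to 270.2 CPM in WT and 239 to 269.8 CPM in KO. Most of this was Gad1, with means of 193 and 192 CPM, so the sum does not measure these cells. Pvalb itself was at 1.77 CPM in WT and 1.44 CPM in KO. Its log2 fold change was -0.35 (unadjusted p = 0.0239 and FDR 0.885 by edgeR's quasi-likelihood test). Gad1 had -0.0050, Kcnc2 -0.01 and Kcnc1 0.06. WT and KO ranges overlapped in each of these lists.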
